A study of Mus musculus with 10 samples.

Results

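The 7 genes described here carry or restrain the Smad2/3 signal inside the cell, the route by which myostatin acts, and they were read in gastrocnemius, a calf muscle, of male mice on a C57BL/6 background. They are the receptor-activated Smads Smad2 and Smad3, their partner Smad4, the inhibitory Smad7, the nuclear repressors Ski and Skil, and the ubiquitin ligase Smurf1. Every probe set annotated to one of these symbols alone was taken, which gave 16 of the 45101 probe sets on the array and 7 of the 18193 genes named by a single symbol. The tested group held 5 mice with floxed myostatin (Mstn) genes, labelled as Mstn knockouts, and the other 5 mice had normal myostatin genes. All 10 mice carried the CAGG-CreER transgene, received 8 tamoxifen injections from 4 months of age and were 7.5 months old. CAGG is a broadly active promoter, so recombination was not restricted to muscle fibres by design. No probe set used here is named Mstn, and the extent of recombination in the muscle was not measured here.

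Myostatin, activins and TGF-beta bind paired receptor kinases that phosphorylate Smad2 and Smad3. The phosphorylated proteins join Smad4, enter the nucleus and regulate transcription together with other factors. Ski and Skil (also called SnoN) bind this complex and recruit corepressors, whereas Smad7 blocks the receptor and brings Smurf ligases to it for degradation. In many cell types the Smad complex itself induces Smad7 and Skil, so these genes form feedback loops. Activation of the transducers is by phosphorylation, which a transcript array does not read.

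A probe set is a group of short probes that together report the transcript, and its value is given here as the log2 of the deposited intensity. Of the 16 probe sets, 12 had a mean of 4 or more over all arrays, the level required for testing, and every one of the 7 genes kept at least 1. The other 4, which belong to Smad3, Skil and Smurf1, lay close to the floor of the scale at means of 2.17 to 3.53. The tissue label was checked against 10 genes of skeletal muscle fibres, all of which were measured, with means of 14.04 to 15.67. On every array between 46.5% and 47.6% of all probe sets reached the level of 4, and no pair of arrays held identical values.

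None of the 12 measured probe sets differed between knockout and control muscle past the threshold (limma, Benjamini-Hochberg adjusted p under 0.05 over all 21154 probe sets tested), where 0.0993% of all probe sets did. On their brightest probe sets Skil and Smad7 had the lowest estimates, at 1.39-fold and 1.27-fold below control. The second Smad7 probe set lay near zero (-0.054, log2). The Smad2 interval (-0.37 to 0.29, log2) includes the Smad7 estimate (-0.35). No test compared feedback genes as a class with the other members. The brightest probe sets of Smad2, Smad3, Smad4, Ski and Smurf1 all had estimates within 0.1 of no difference on the log2 scale. Smad7 and Skil were also the members with an unadjusted p under 0.05, which makes 2 of 12 probe sets, against 7.69% of all those tested.

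**Figure D1:**
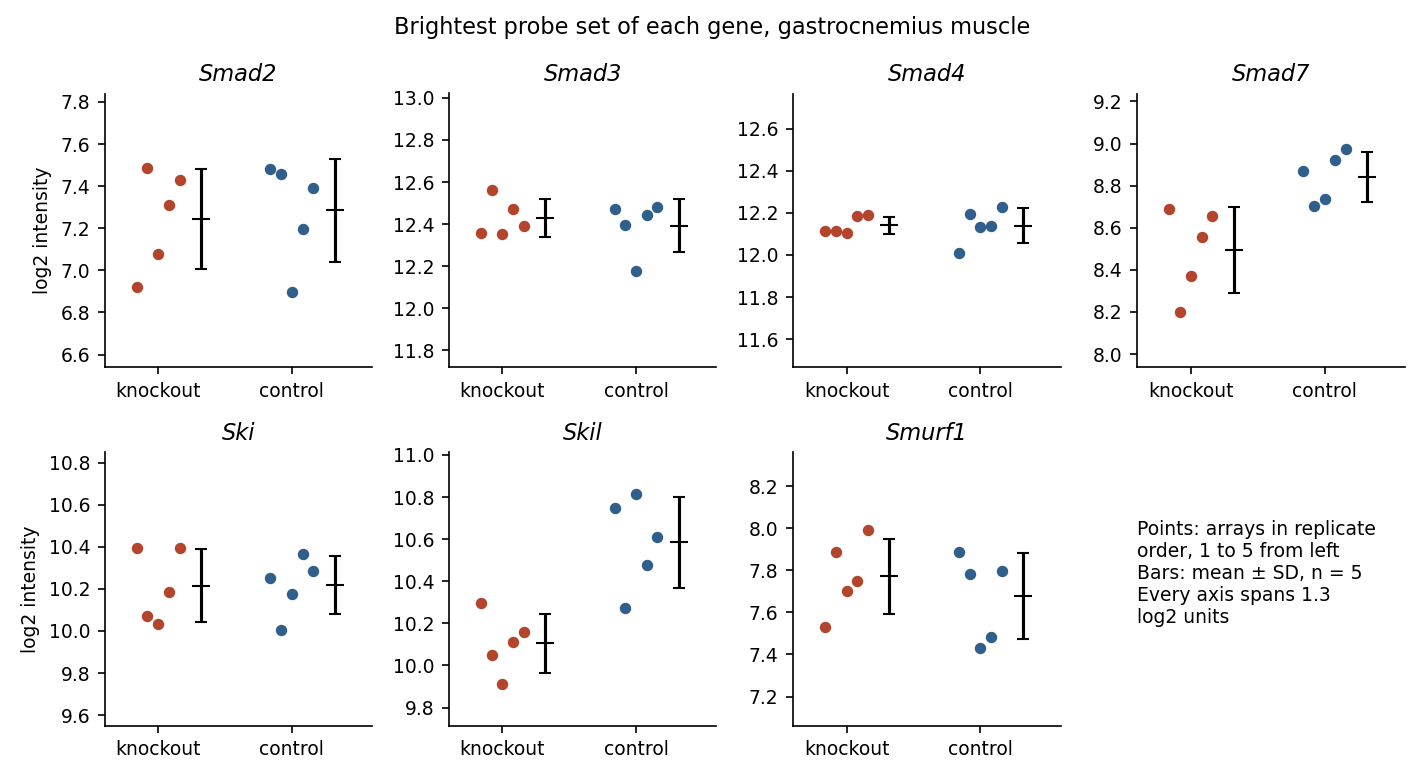
Log2 intensity (vertical axes, each spanning the same number of units) of the brightest probe set of each gene in the 5 knockout and 5 control arrays, with the mean ± SD beside the points. The knockout points lie below all control points for Smad7 (8.20 to 8.69 against 8.70 to 8.98) and mostly below them for Skil, while the groups lie over each other for the remaining genes.

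Skil encodes a repressor of Smad-driven transcription. On its brightest probe set (1452214_at) the level was 10.30, 10.05, 9.91, 10.11 and 10.16 in knockout 1 to 5 and 10.75, 10.28, 10.82, 10.48 and 10.61 in control 1 to 5. Of the knockout arrays, 4 lay below every control, and knockout 1 lay just above control 2, so the groups overlapped by that pair. Skil averaged 10.11 ± 0.14 in knockouts and 10.59 ± 0.22 in controls (SD, n = 5 each). The difference was -0.48 ± 0.12 (log2, SE; 95% interval -0.74 to -0.22), with an adjusted p of 0.285 in limma. In linear terms the interval runs from 0.599 to 0.858 of the control level. The other Skil probe set lay near the floor, at 2.31 to 2.90 in knockouts and 2.30 to 2.85 in controls, and gives no second reading of the gene. In whole muscle, fewer cells that express a gene and less of its RNA per cell cannot be told apart.

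Smad7 encodes the inhibitory Smad that competes at the activated receptor. Its brightest probe set (1423389_at) read 8.69, 8.20, 8.37, 8.56 and 8.66 in knockout 1 to 5 and 8.87, 8.70, 8.74, 8.92 and 8.98 in control 1 to 5. The groups did not overlap, although the highest knockout and the lowest control were almost equal, and 0.893% of all tested probe sets were likewise lower in knockouts without overlap. Smad7 averaged 8.49 ± 0.21 in knockouts and 8.84 ± 0.12 in controls (SD, n = 5 each), a difference of -0.35 ± 0.11 (log2, SE; 95% interval -0.59 to -0.10) with an adjusted p of 0.469 in limma.

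The second Smad7 probe set (1443771_x_at) did not show the same separation. It read 8.36, 8.14, 8.38, 8.36 and 8.43 in knockout 1 to 5 and 8.28, 8.35, 8.55, 8.40 and 8.37 in control 1 to 5, and the groups lay over each other. Its difference was -0.054 ± 0.079 (log2, SE; 95% interval -0.23 to 0.12; adjusted p = 0.967 in limma). The suffix of its name marks a set in which some probes can also bind other sequences. Within each array the brighter probe set exceeded the other by 0.16 ± 0.14 in knockouts and 0.45 ± 0.18 in controls (log2, SD, n = 5 each), and exact permutation gave a two-sided, unadjusted p of 0.0397. That comparison was made after the values were seen. With both probe sets averaged the Smad7 difference was -0.20 (adjusted p = 0.606 in limma).

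**Figure D2:**
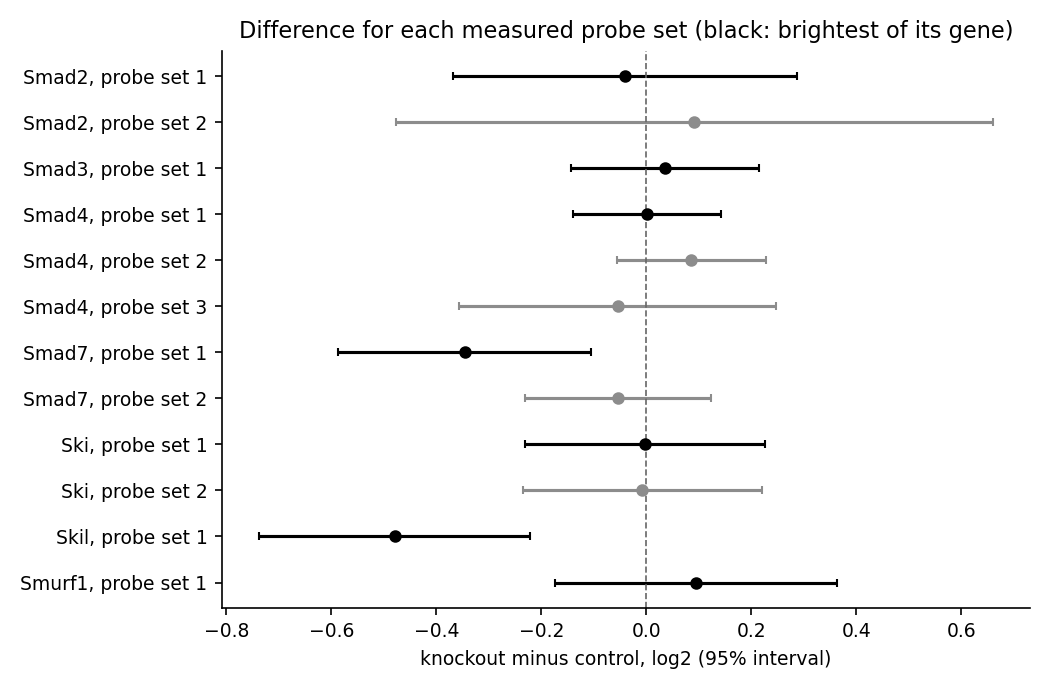
Knockout minus control difference (horizontal axis, log2) with its 95% interval for each of the 12 measured probe sets, numbered within a gene in falling order of brightness. The intervals of Skil and of the first Smad7 probe set lie below zero, and the other 10 include zero.

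Ski, the founding member of the repressor family to which Skil belongs, had nearly equal levels in both groups. It read 10.39, 10.07, 10.03, 10.19 and 10.39 in knockout 1 to 5 and 10.25, 10.01, 10.18, 10.37 and 10.29 in control 1 to 5. The difference was -0.0022 ± 0.10 (log2, SE; 95% interval -0.23 to 0.23; adjusted p = 0.999 in limma). Its second probe set gave -0.0078, with an interval of -0.24 to 0.22. For both probe sets the interval excludes a fall as large as the Skil estimate, but it overlaps the end of the Skil interval (-0.74 to -0.22).

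Whether Skil and Ski differed in their response was tested directly, by taking Skil minus Ski within each array. This value was -0.098, -0.017, -0.12, -0.077 and -0.24 in knockout 1 to 5 and 0.50, 0.27, 0.64, 0.11 and 0.32 in control 1 to 5, and the groups did not overlap. The change in Skil relative to Ski was -0.48 (log2), and exact permutation over all assignments of the arrays gave a two-sided p of 0.00794 (n = 5 per group), the smallest this design allows, or 0.0159 adjusted over the 2 pairs tested. The levels of different probe sets are not comparable, so only the change in this value between groups is read. The pair was set with the low Skil estimate already known, so the test is not independent evidence for Skil.

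Among the transducers, Smad2, which does not itself bind DNA in its main form, had levels of 6.92 to 7.48 in knockouts (median 7.31) and 6.90 to 7.48 in controls (median 7.39). The ranges were almost the same. The difference was -0.041 ± 0.15 (log2, SE; 95% interval -0.37 to 0.29; adjusted p = 0.990 in limma). A dimmer Smad2 probe set gave 0.092 with a wide interval of -0.48 to 0.66.

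Smad3, the DNA-binding transducer, read 12.36, 12.56, 12.35, 12.47 and 12.39 in knockout 1 to 5 and 12.47, 12.39, 12.18, 12.44 and 12.48 in control 1 to 5. The groups overlapped and differed by 0.035 ± 0.080 (log2, SE; 95% interval -0.14 to 0.21; adjusted p = 0.983 in limma). Smad3 minus Smad2 within an array averaged 5.18 ± 0.18 in knockouts and 5.11 ± 0.15 in controls (log2, SD, n = 5 each). This was the second pair tested, and exact permutation gave a two-sided p of 0.476 (0.476 after adjustment).

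Smad4, the partner shared with the bone morphogenetic protein branch, was the member with the narrowest interval. Its brightest probe set read 12.10 to 12.19 in knockouts and 12.01 to 12.23 in controls, and the difference was 0.0016 ± 0.063 (log2, SE; 95% interval -0.14 to 0.14; adjusted p = 0.999 in limma). In linear terms that interval runs from 0.908 to 1.10 of the control level. The other Smad4 probe sets gave 0.086 (interval -0.055 to 0.23) and -0.055 (interval -0.36 to 0.25).

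**Figure D3:**
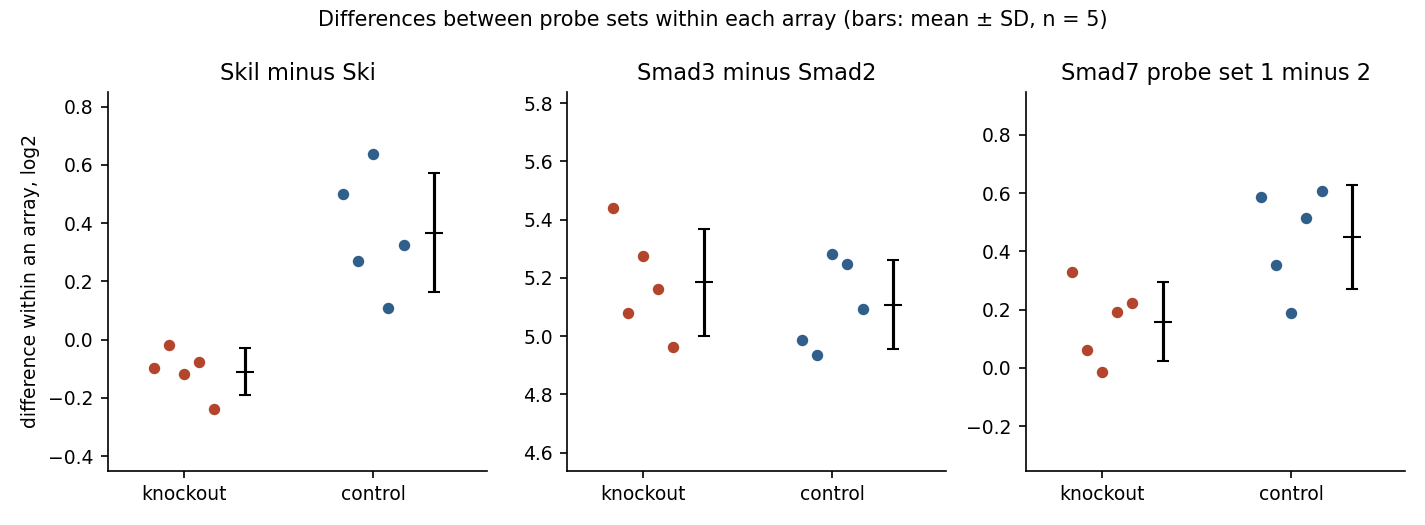
Difference between 2 probe sets within each array (vertical axes, log2) for Skil minus Ski, Smad3 minus Smad2, and the brighter minus the other Smad7 probe set, in 5 knockout and 5 control arrays with mean ± SD. The groups are apart for Skil minus Ski (-0.24 to -0.017 in knockouts against 0.11 to 0.64 in controls) and overlap in the other panels.

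Smurf1 encodes the ubiquitin ligase that Smad7 recruits. It read 7.53, 7.89, 7.70, 7.75 and 7.99 in knockout 1 to 5 and 7.89, 7.78, 7.43, 7.48 and 7.80 in control 1 to 5, with overlapping groups. The difference was 0.095 ± 0.12 (log2, SE; 95% interval -0.17 to 0.36; adjusted p = 0.954 in limma). The second Smurf1 probe set lay at the floor, at 2.20 to 2.26 in knockouts and 2.19 to 2.30 in controls.

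The members also varied between mice of the same group. Over the 10 arrays, with the mean of each group taken off, Smad2 went with Smurf1 (Pearson's r = 0.92) and with Smad3 (r = 0.79), and Smad7 went with Ski (r = 0.87). Skil correlated at 0.59 with Ski and 0.42 with Smad7. These values describe 10 arrays that share the same normalization, and they carry no test. By the same measure the genes most like Skil, of 10277 genes searched, were Sirpa, an inhibitory receptor of myeloid cells (r = 0.95), Itih5 (0.93) and the potassium channel gene Kcnk3 (0.91). Those most like Smad7 were Pik3r6 (0.93), Vcan, a matrix proteoglycan (0.93), and Tmem175 (0.92). For Ski they were Serf1 (0.96), Vcan (0.94) and Pmepa1 (0.92), the last a membrane protein that sequesters Smad2 and Smad3. Those most like Smad2 were Trmt10b, Extl1 and Ccl25 (0.98 to 0.99), and those most like Smad3 were Wdyhv1, Blmh and Erp44 (0.97 to 0.98). For Smad4 they were Cep112, Evi5 and Mlf1 (0.93 to 0.95), and for Smurf1 they were Rbm5, Prmt1 and Galt (all 0.96). A search of 10277 genes over 10 arrays can turn up high r values among unrelated genes, so these lists are a description only.

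Part of this variation followed an array measure, the mean intensity of 7 bacterial control probe sets for RNA added to every array. Smad2 fell as these controls rose across the 10 arrays (Pearson's r = -0.86, permutation p = 0.00196; Spearman's rho = -0.83, p = 0.00472), with p values of 0.0137 and 0.0166 adjusted over the 7 members. So did Smurf1 (r = -0.75, permutation p = 0.0123; rho = -0.83, p = 0.00475), with adjusted values of 0.0429 and 0.0166. Leaving out the 2 arrays whose controls lay farthest from their median, r was -0.84 for Smad2 and -0.90 for Smurf1. With 5 arrays in each group, the relation was not computed within groups. For Skil r was -0.041 (permutation p = 0.909, 0.909 adjusted) and for Smad7 -0.16 (permutation p = 0.662, 0.773 adjusted), with Spearman's rho of -0.018 for each (permutation p = 0.974 and 0.973, both 0.974 adjusted). Without the same 2 arrays r was 0.53 for Skil (rho 0.38) and 0.17 for Smad7 (rho 0.38). For Skil both values near zero therefore rest on those arrays. For Smad7 the rho near zero does too, while r changed sign at a similar size. The controls averaged 13.15 ± 0.25 in knockouts and 13.12 ± 0.14 in controls (log2, SD, n = 5 each; exact permutation p = 0.786). With them as a covariate, the Skil difference was -0.48 (adjusted p = 0.147 in limma) and the Smad7 difference -0.34 (adjusted p = 0.242). In the same fit the Smad2 difference was -0.0063 (adjusted p = 0.983) and the Smurf1 difference 0.12 (adjusted p = 0.575).

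Around the members, 71 other genes of the pathway were listed by role, of which 53 were measured. Col1a2 was the single one past the threshold, against 0.131% of all genes on their brightest probe sets. Its call was lost when any array other than knockout 5 was left out (adjusted p up to 0.161). Of the 53, 34 had lower values in knockouts, where 51.5% of all 10704 genes did, and their median was -0.036 against -0.0049 for all genes (log2 difference).

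Among the other Smads, Smad1 (0.037) and Smad5 (0.030), transducers of the bone morphogenetic protein branch, did not pass, and Smad6 and Smad9 were too dim to test. None of the 10 measured ligands and receptors passed, and 6 of them had higher values in knockouts. The type I receptor gene Tgfbr1 averaged 10.48 ± 0.10 in knockouts and 10.22 ± 0.14 in controls (log2, SD, n = 5 each), a difference of 0.26 (adjusted p = 0.488 in limma). The ligand gene Tgfb3 differed by -0.35 (adjusted p = 0.536 in limma), Acvr2a, a myostatin and activin receptor gene, by 0.22, and the activin subunit gene Inhbb by 0.37.

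None of the 11 measured cofactors and corepressors passed, and 9 had lower values. Those of lowest p were Sp1 (-0.23), Tgif2 (-0.39), Tgif1 (-0.24) and Atf3 (-0.17), with adjusted p values of 0.757 to 0.976 in limma. None of the 18 measured ligases, deubiquitinases, phosphatases and anchors passed, with 10 lower. Smurf2, the close relative of Smurf1, is named outside the rule for that reason and gave -0.066 (adjusted p = 0.973 in limma).

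Pmepa1 had the lowest p of that list. The protein takes Smad2 and Smad3 away from the receptor, and its gene is known as a TGF-beta target in cultured cells. Whether Smads induce Pmepa1 in this muscle was not tested. Pmepa1 read 9.84, 9.29, 9.44, 9.46 and 9.93 in knockout 1 to 5 and 10.33, 10.04, 10.36, 10.43 and 10.51 in control 1 to 5. The groups did not overlap, and 0.893% of all tested probe sets were likewise lower in knockouts without overlap. The Pmepa1 difference was -0.74 ± 0.14 (log2, SE), with an adjusted p of 0.137 in limma. It passed with a variance trend and robust fit (adjusted p = 0.0440) and with array weights (0.0425). It did not pass under the other 8 alternatives run for it (adjusted p of 0.0766 to 0.263) or with any array left out (0.0977 to 0.371). The 2 dimmer Pmepa1 probe sets had -1.11 and -0.23 and did not pass (adjusted p = 0.417 and 0.872). Usp9x (0.14), Stub1 (-0.14) and Strap (0.099) had the next lowest p.

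Of 20 genes that respond to Smad3 in cultured cells, 12 were measured and 11 had lower values in knockouts, with a median difference of -0.36 (log2). The collagen gene Col1a2 fell by 0.84 ± 0.12 (log2, SE), with an adjusted p of 0.0494 in limma and no overlap between groups. Col1a1 (-0.71), Postn, a matricellular protein gene (-0.87), and Col3a1 (-0.41) did not pass, with adjusted p values of 0.104, 0.280 and 0.376 in limma. None of these had overlapping groups, and 0.893% of all tested probe sets were likewise lower in knockouts without overlap. The list was written with earlier results of these data known. Most of its measured genes encode matrix proteins that fibroblasts make.

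**Figure D4:**
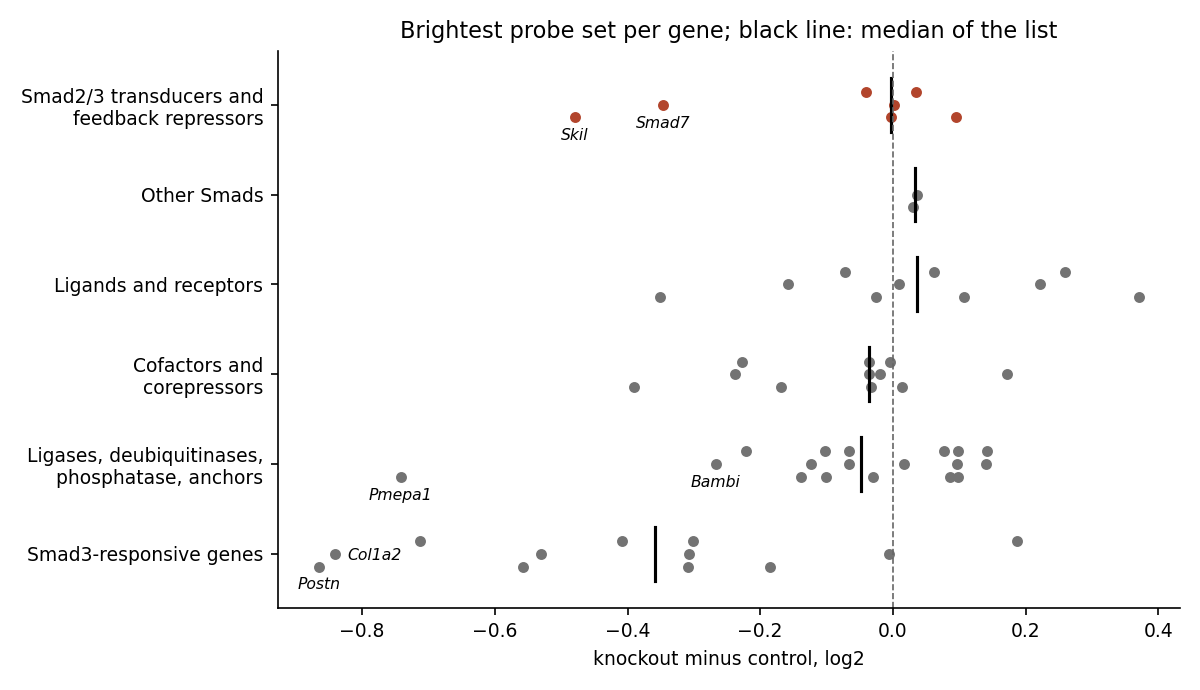
Knockout minus control difference (horizontal axis, log2) of the brightest probe set of each gene, one row for the 7 members and one for each list of other pathway genes, with a black line at the median. Skil (-0.48) and Smad7 (-0.35) lie apart from the other 5 members, Pmepa1 (-0.74) lies lowest in its list, and the Smad3-responsive genes lie mostly to the left with a median of -0.36.

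Markers of cells other than muscle fibres had lower values in the same muscles as Skil and Smad7. Lower values were found for 8 of 8 fibroblast markers (median -0.32), 6 of 6 tendon markers (-0.86), 8 of 8 macrophage markers (-0.39), 5 of 6 endothelial markers (-0.21), 4 of 4 smooth muscle markers (-0.45) and 4 of 4 Schwann cell markers (-0.39), and none passed the threshold. Cnn1, a smooth muscle marker, was below the level for testing. The summed intensity of the fibroblast markers was 21304 to 29129 in knockouts and 25493 to 33081 in controls. That of the tendon markers was 15063 to 29350 in knockouts and 28327 to 34542 in controls, and that of the macrophage markers 6099 to 11344 in knockouts and 8760 to 12809 in controls. The endothelial sums were 2509 to 2886 in knockouts and 3002 to 3379 in controls, and the smooth muscle sums 2317 to 3458 in knockouts and 3430 to 4232 in controls. For Schwann cell markers the sums were 5385 to 8907 in knockouts and 6336 to 9872 in controls. Of these 6 sums, only the endothelial one did not overlap between groups. This depended on the measure, since a sum is weighted to the brightest markers. By the mean log2 of each list, the endothelial markers overlapped (8.33 to 8.55 in knockouts, 8.42 to 8.79 in controls). The smooth muscle markers did not overlap by that mean (8.76 to 9.20 in knockouts, 9.21 to 9.63 in controls). Markers of muscle fibres differed by -0.038 to 0.049 (log2). Their means of 14.04 to 15.67 lay near the highest value of each array (16.01 to 16.07). Whether fibre content was equal was not tested. The part of the shifts in the other markers in the Skil and Smad7 values was not tested.

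A measure of RNA integrity differed slightly between the groups, though not after adjustment. The 3' minus 5' difference of the Gapdh control probe sets was 0.45 ± 0.031 in knockouts and 0.49 ± 0.026 in controls (log2, SD, n = 5 each), and exact permutation gave a two-sided p of 0.0317, or 0.0952 adjusted over 3 array measures. For beta-actin it was 1.40 ± 0.047 in knockouts and 1.47 ± 0.057 in controls (exact permutation p = 0.0873, 0.131 adjusted). Its part in the member values was not tested.

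The estimates for Skil and Smad7 kept their sign in every way of processing that was tried. With 1 array left out at a time, Skil lay between -0.56 and -0.42 and Smad7 between -0.40 and -0.27 (log2), and neither passed the threshold in any of these fits (adjusted p of 0.175 or more). Ski lay between -0.055 and 0.044 in the same fits. The Skil estimate was -0.27 when its probe set at the floor was averaged in.

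**Figure D5:**
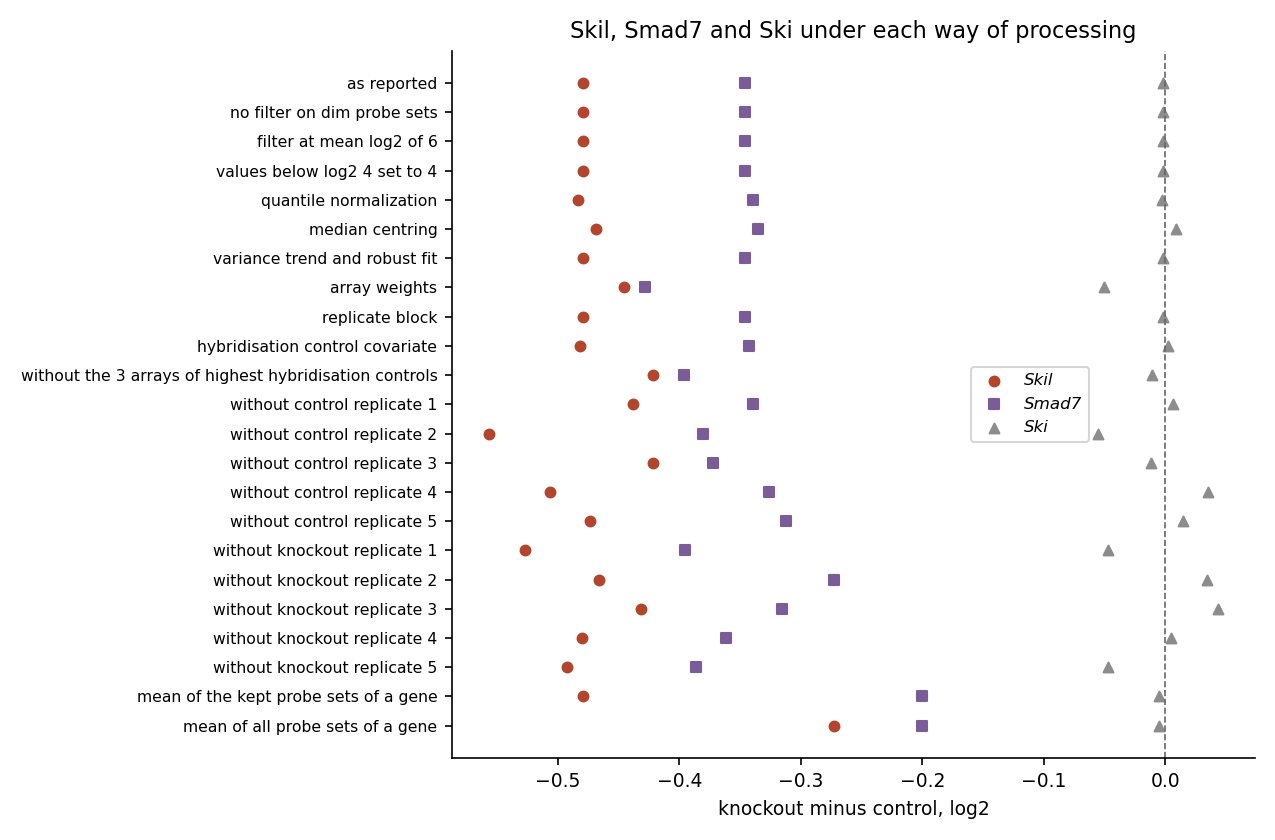
Knockout minus control difference (horizontal axis, log2) of Skil, Smad7 and Ski under each way of processing, one per row. Skil stays between -0.56 and -0.27 and Smad7 between -0.43 and -0.20, while Ski stays between -0.055 and 0.044.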

How the data were processed

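Gastrocnemius RNA of 10 mice was extracted with Trizol and labelled with NuGEN kits, per the labels' protocols. The deposited values are linear intensities per probe set made by the authors with GCRMA, per the submitters' processing notes. This method uses probe sequence to correct for background, brings arrays to a common scale and combines the probes of a set, and it compresses differences near the floor. No version or settings for it are given in the labels used here. Deposited intensities were moved to the log2 scale here without another normalization.

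Gene names came from the platform annotation. There 34958 probe sets carry 1 symbol, 932 several and 9211 are not listed. No probe set naming a member carried a second symbol. The 64 array controls and probe sets with a mean log2 under 4 were left out, leaving 21154. The two-sided test between groups was limma 3.58.1 (eBayes after lmFit) under R 4.3.3, with Benjamini-Hochberg adjustment over all 21154. The fit was checked on simulated data with independent noise. There, recovery past the threshold was required only for a change several times larger than the Skil estimate. How often a change as small as the Skil estimate would pass is not given here. The brightest probe set over all arrays represented a gene. Single values were compared by exact permutation over all assignments of the arrays. Members and lists were chosen with earlier results of these data known. Named genes were all members, the genes of each pathway list past the threshold, made up to 4 with those of lowest p, and the 3 genes most like each member. Arrays have no read depth, so their number limits the precision. Figures were drawn with matplotlib 3.10.9.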

Additional observations from a re-analysis of the deposited data

Results flagged for a closer look

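Examined were 98 groups of 5 arrays (member probe sets, array measures, list means and named pathway genes). Of them, 8 held 1 array far from the others. For independent groups of normally spread values the rule marks about 1 in 20, or 4.9. The groups here share arrays and include probe sets at the floor, so 8 is not read against 4.9. Among tested member probe sets, the dimmest Smad4 probe set read 7.61 in control 3 against 8.05 to 8.07 in the other controls. The second Smad7 probe set read 8.14 in knockout 2 against 8.36 to 8.43 in the other knockouts. Of the probe sets at the floor, Skil read 2.90 in knockout 3, Smad3 read 2.30 in control 2, and Smurf1 read 2.26 in knockout 2 and 2.30 in control 2. Beyond the members, Sp1 read 7.35 in knockout 3 against 7.84 to 8.02, and the mean of the Schwann cell markers was 8.45 in control 5 against 9.02 to 9.24 (all log2 intensity).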

How the results depend on the processing

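No member probe set passed the threshold under any alternative that could be fitted (0 in each). The count over all probe sets was 21 (11 higher and 10 lower) and became 11 when dim probe sets were kept, 36 after quantile normalization, 58 with a variance trend and robust fit, 67 with array weights, 1 with the replicate number as a block, 99 (62 higher and 37 lower) with the hybridisation control covariate and 5 without the 3 arrays of highest hybridisation controls. It was 1 to 17 with each array left out. Median centring gave 17 higher and 11 lower. The 1 call among other pathway genes became 0 with no filter, with the replicate block and without those 3 arrays, 3 with the trend and robust fit, 2 with array weights, and 0 to 1 with each array left out. Causes were not tested.

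Members near zero changed sign: Smad4 was -0.0086 after quantile normalization and -0.011 with array weights. Ski was 0.0086 after median centring and 0.0026 with the covariate, and its second probe set 0.0031 and 0.0076 there, 0.0051 after quantile normalization and 0.029 without the 3 arrays. Smad2 was 0.025 without the 3 arrays and 0.025 with its kept, or all, probe sets averaged. With each array left out the ranges were -0.14 to 0.040 for Smad2, -0.019 to 0.057 for Smad3, -0.031 to 0.023 for Smad4, -0.055 to 0.044 for Ski, 0.034 to 0.16 for Smurf1, -0.56 to -0.42 for Skil and -0.40 to -0.27 for Smad7. They were -0.14 to 0.044 and 0.062 to 0.10 for the dimmest and the second Smad4 probe set, -0.061 to 0.038 for the second Ski probe set, and -0.054 to 0.26 for the second Smad2 probe set. Lowest adjusted p values were with array weights, 0.106 for Skil and 0.147 for Smad7.

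Same-numbered arrays deviated with correlations of -0.51, 0.13, 0.62, -0.20 and 0.19, so the numbers were not taken as pairs. With the replicate block Skil had an adjusted p of 0.418 and Smad7 of 0.383, and Skil minus Ski stayed at -0.48 with an adjusted p of 0.125, the lowest that sign flips of 5 pairs allow unless the other pair is as low. With each array left out, Skil minus Ski lay between -0.54 and -0.41 (exact permutation, adjusted p 0.0159 to 0.0317). The pair was set with the low Skil estimate known, so these p values are not independent evidence for Skil. Nearness to the floor limits 4 member probe sets, and 5 mice per group limit all.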

Other observations

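Because Smad7 and Ski varied together between mice, Smad7 minus Ski was looked at within each array. This was done after the values were seen, so no p value is read from it. The value was -1.71, -1.87, -1.66, -1.63 and -1.74 in knockout 1 to 5 and -1.38, -1.30, -1.44, -1.45 and -1.31 in control 1 to 5 (log2). The groups did not overlap, and the gap between them was wider than for Smad7 alone. Ski was picked for varying with Smad7 on these arrays, and it hardly differed between groups (-0.0022). Taking it off therefore narrows the spread and keeps the shift, so the wider gap is no further evidence for Smad7. The second Smad7 probe set, which differed by -0.054 with overlapping groups, does not enter this value.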
